A study of Mus musculus with 20 samples.

Results

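The 9 genes described here encode the receptors for type I and type II interferon (Ifnar1, Ifnar2, Ifngr1 and Ifngr2) and the factors that act below them (Stat2, Irf9, Irf7, Irf1 and Usp18). They were chosen by name for their roles in interferon signaling, with no threshold on a measured value, and are 9 of the 39017 genes counted. RNA was sequenced from microglia and from astrocytes of the ipsilateral (left) forebrain of adult male C57BL/6 mice (C57BL/6J in the study's methods), 3 to 4 months old, with 5 libraries in each of 4 groups and 20 in all. Fluid percussion injury (FPI), a model of traumatic brain injury, sends a pulse of fluid against the dura through a craniectomy, and sham mice had the same craniectomy and were connected to the device with no pulse. All mice were killed 7 days later. Microglia were sorted as CD11b+ cells with intermediate CD45, and astrocytes by the surface antigen ACSA-2, and each library came from 1 animal without pooling.

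Type I interferons (the alpha and beta interferons) bind a receptor of 2 chains, Ifnar1 and Ifnar2, and interferon gamma binds a receptor made of Ifngr1 and Ifngr2. The kinases Jak1 and Tyk2 on the type I receptor phosphorylate Stat2, which with Irf9 is part of ISGF3, a complex that binds interferon-stimulated response elements (ISRE) in the promoters of antiviral genes. Irf7 and Usp18 are themselves interferon-stimulated: Irf7 drives further interferon transcription, and Usp18 removes ISG15 from proteins and binds Ifnar2 to dampen the type I receptor. Interferon gamma acts through gamma-activated sites (GAS), and Irf1 is a classic early target of that route.

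On GRCm38, in the GENCODE M21 annotation, 3 of the 4 receptor genes lie close together on chromosome 16, with Ifnar2 at chr16:91372783-91405589, Ifnar1 at chr16:91485238-91507441 and Ifngr2 at chr16:91547072-91565623, all on the plus strand. Ifngr1 lies at chr10:19591949-19610229 and Stat2 on the same chromosome at chr10:128270559-128292849. Irf9 is at chr14:55603571-55610030, Irf1 at chr11:53770014-53778374 and Usp18 at chr6:121245906-121270917, on the plus strand, and Irf7 is on the minus strand at chr7:141262706-141266481. Each value covers all annotated exons of a gene together. Ifnar2 shares 315 exon bases, or 9.46% of its exons, with Gm21970 on the same strand, and Irf9 shares 123 bases (2.28%) with Rnf31. Irf7, Irf1 and Usp18 overlap genes of the other strand by 45, 135 and 124 exon bases. The strand setting of the counting is not given in the sources used here, so reads in those stretches cannot be assigned with certainty.

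Promoter windows of 300 bases, from 250 bases before to 50 after the start, were taken from RefSeq (GRCm38.p6) for 8 of the 9 genes, all but Usp18, and were searched on both strands for the ISRE core GAAANNGAAA and the GAS core TTCNNNGAA, which do not overlap each other in these windows. Of all 32851 RefSeq promoters of that length 3.44% held an ISRE core and 8.3% a GAS core. Among the 8 genes, Stat2 held an ISRE core, at positions -222 to -213 from its start (on the minus strand), and Irf1 held a GAS core, at -90 to -82 from the first of its 2 starts. Ifnar2 and Ifnar1 each held a GAS core, at -214 to -206 in Ifnar2 and across the start, at -5 to 3, in Ifnar1. The windows of Ifngr1, Ifngr2, Irf9 and Irf7 held neither set of letters. By comparison, an ISRE core was found for 9 of the 14 ISGF3 target genes with a RefSeq promoter (64.3%) and for 3.99% of all genes. It was not particular to them, as 7 of 13 interferon gamma target genes (53.8%) and 11 of 20 interferon genes (55%) also held it. In each other list of pathway genes the share was at most 20%. The 3 promoters below are those of Stat2, with the ISRE core in capitals, of Irf1, with the GAS core in capitals, and of Irf7, the gene with the largest fold change after FPI and no match, each 5′ to 3′ on its gene's own strand.
Stat2 (chr10:128270248-128270547, plus strand): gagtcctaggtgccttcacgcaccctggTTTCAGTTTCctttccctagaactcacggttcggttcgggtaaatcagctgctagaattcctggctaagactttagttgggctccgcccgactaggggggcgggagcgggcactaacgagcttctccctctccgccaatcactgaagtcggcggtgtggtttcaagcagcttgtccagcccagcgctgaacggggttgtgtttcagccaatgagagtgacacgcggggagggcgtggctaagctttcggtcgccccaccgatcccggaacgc
Irf1 (chr11:53769764-53770063, plus strand): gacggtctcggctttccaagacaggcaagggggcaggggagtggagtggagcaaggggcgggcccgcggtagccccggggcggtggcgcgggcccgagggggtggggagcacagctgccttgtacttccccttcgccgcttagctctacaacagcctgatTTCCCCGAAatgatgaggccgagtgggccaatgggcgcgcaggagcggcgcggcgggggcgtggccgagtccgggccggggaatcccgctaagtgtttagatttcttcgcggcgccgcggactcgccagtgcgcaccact
Irf7 (chr7:141266375-141266674, minus strand): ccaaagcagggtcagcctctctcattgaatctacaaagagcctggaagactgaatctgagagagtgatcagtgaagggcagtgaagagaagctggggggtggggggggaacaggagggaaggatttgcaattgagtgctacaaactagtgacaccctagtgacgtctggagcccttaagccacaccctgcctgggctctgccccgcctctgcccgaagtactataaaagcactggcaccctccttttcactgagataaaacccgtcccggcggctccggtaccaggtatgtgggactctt

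**Figure D1:**
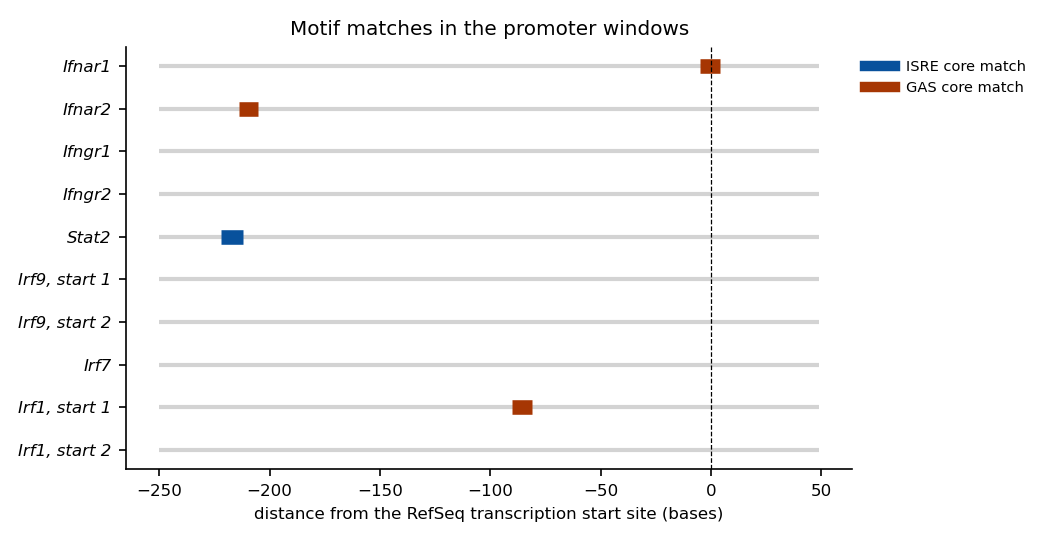
Matches to the ISRE core (blue) and the GAS core (orange) in the promoter windows of 8 genes, with 2 start sites for Irf9 and Irf1, by distance in bases from the RefSeq start site (dashed line). Stat2 holds the 1 ISRE match, and Ifnar1, Ifnar2 and Irf1 hold 1 GAS match each.

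Counts on genes ran from 5.62 to 13.1 M per library, with a mean of 8.51 M and group medians from 7.88 M in FPI astrocytes to 9.30 M in sham astrocytes. The unit of level is CPM, in which counts are scaled to 1 common library size, written as mean ± SD of n = 5, and p-values measure the spread between libraries of a group. Microglia markers were summed over 10 genes and reached 20024 to 31305 CPM in microglia and 104 to 269 CPM in astrocytes. Astrocyte markers reached 11073 to 34432 CPM in astrocytes and 252 to 639 CPM in microglia, so these lists separated the labels. Astrocyte libraries also held RNA of oligodendrocytes, with 7 markers summing to 1667 to 17879 CPM in sham and 3244 to 11268 CPM in FPI mice. These ranges overlap. In sham astrocyte library 4 the oligodendrocyte markers, at 17879 CPM, exceeded the astrocyte markers, at 11073 CPM. In FPI astrocyte library 4 they were at 11268 CPM beside 12691 CPM of astrocyte markers. The part of oligodendrocyte RNA in the astrocyte levels below was not tested. FPI astrocyte library 5 carries a microglia suffix in its name, with an animal number that FPI astrocyte library 2 also has, and the main results that rest on it are given with and without it. The names also show 3 animals that contributed both microglia and astrocytes, and the fits over both cell types treat these libraries as independent. In sorted bulk RNA, fewer cells that express a gene and less RNA per cell cannot be told apart.

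All 9 genes had a higher mean level in microglia than in astrocytes, in sham and in FPI mice. In sham mice edgeR's quasi-likelihood test called 8 of the 9 higher in microglia, at an adjusted p below 0.1 with a log2 fold change above 0.6, and 25.3% of the 15077 genes tested were called in that direction. Their median log2 fold change, microglia against astrocytes, was 1.97, beside a median of -0.15 over all genes. In FPI mice the same test called all 9, also without FPI astrocyte library 5, with a median of 2.55, against 25.9% and a median of -0.13 over all genes. Both comparisons use the same libraries as the comparisons of surgery further on.

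The widest gaps were those of the interferon gamma receptor. Ifngr1, its ligand-binding chain, stood at 699 ± 36.5 CPM in sham microglia and 46.9 ± 9.30 CPM in sham astrocytes, 14.9-fold apart (log2 fold change 3.90 with an SE of 0.20, adjusted p = 9.65e-13, edgeR). Ifngr2, the chain that brings Jak2 to the complex, stood at 148 ± 6.23 and 11.1 ± 3.47 CPM, 13.4-fold apart (3.74 with an SE of 0.28, adjusted p = 2.81e-10, edgeR). For both genes every microglia library lay above every astrocyte library, in sham and in FPI mice alike.

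The chains of the type I receptor differed less between the cells. Ifnar2, which binds interferon with high affinity, was 5.37-fold higher in sham microglia (117 ± 3.85 CPM against 21.8 ± 4.86 CPM, log2 fold change 2.42 with an SE of 0.19, adjusted p = 4.95e-10, edgeR). Ifnar1 was 1.46-fold higher (99.7 ± 14.7 CPM against 68.4 ± 10.7 CPM), and its libraries did not overlap either, from 82.8 to 114 CPM in microglia and from 57.1 to 81.9 CPM in astrocytes. Its log2 fold change of 0.54 (with an SE of 0.14, adjusted p = 0.0021, edgeR) fell short of the fold required, and it was called without sham microglia library 1 (0.63) or without sham astrocyte library 2 (0.64). In FPI mice it was 1.83-fold higher and was called (0.88 with an SE of 0.14, adjusted p = 1.63e-05, edgeR).

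Levels were also taken per kilobase of all annotated exons, and an order between genes on this scale depends on those lengths. For Irf7 the annotated exons together cover the whole gene. On this scale the balance of the type I receptor chains ran in opposite directions in the cell types. In sham microglia Ifnar2 stood at 35.1 and Ifnar1 at 16.8 CPM per kb, whereas in sham astrocytes Ifnar1 stood at 11.5 and Ifnar2 at 6.55 CPM per kb. Within each library the ratio of Ifnar1 to Ifnar2 per kb lay between 0.390 and 0.556 in sham microglia and between 1.25 and 2.14 in sham astrocytes. The ratio was below 1 in each sham microglia library and above 1 in each sham astrocyte library. In FPI mice it lay between 0.388 and 0.824 in microglia and between 1.12 and 2.19 in astrocytes. The log2 ratio differed by -1.91 between sham microglia and sham astrocytes and by -1.74 between the FPI groups, each with p = 0.00794 in an exact two-sided permutation test with n = 5 and 5, the smallest p it allows, and 0.0159 after adjustment over the 4 such comparisons made. The ratios were compared after the levels had been seen. This test, here and for the gamma receptor below, treated libraries as independent, although by their names 3 animals gave both cell types. The level of the ratio depends on the annotated exon lengths, which cancel in the difference between cell types.

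The chains of the gamma receptor kept a similar balance in both cells. Ifngr1 exceeded Ifngr2 per kb by a geometric mean of 6.23 times in sham microglia and 5.82 times in sham astrocytes, and by 5.19 and 5.6 times in FPI mice. The differences in log2 ratio were 0.10 and -0.11 (adjusted p = 0.698 for each, exact permutation test, n = 5 and 5). Without sham astrocyte library 4, whose Ifngr2 level was the lowest, the sham difference was 0.27 with an unadjusted p of 0.0476 by the same exact test, and without sham astrocyte library 5 it was -0.02.

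**Figure D2:**
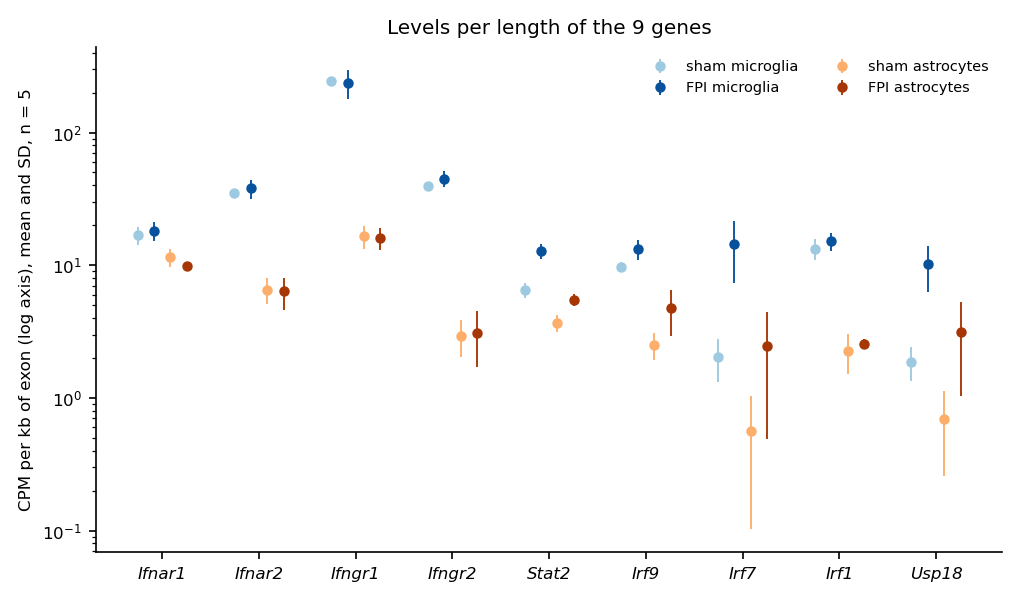
Level of each gene in CPM per kb of exon (log axis) in the 4 groups, as mean and SD of 5 libraries, with lower bars that would pass 0 cut short. Ifngr1 has the highest level in each group, 245 CPM per kb in sham microglia and 16.5 in sham astrocytes, and Usp18 and Irf7 have the lowest levels in both sham groups.

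Of the factors in sham mice, Irf1 was 5.89-fold, Irf9 3.92-fold, Irf7 3.61-fold, Usp18 2.71-fold and Stat2 1.77-fold higher in microglia. Sham microglia held 13.3 CPM per kb of Irf1, 9.76 of Irf9, 6.51 of Stat2, 2.05 of Irf7 and 1.88 of Usp18. In sham astrocytes the order was different, with Stat2 highest at 3.68 CPM per kb, then Irf9 at 2.49, Irf1 at 2.27, Usp18 at 0.693 and Irf7 at 0.567. Irf7 and Usp18 thus had the lowest levels of the 9 genes in both sham groups. In sham astrocytes they rested on few reads, from 4 to 37 per library for Irf7 and from 2 to 30 for Usp18.

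None of the 4 receptor genes was called after FPI in either cell type by edgeR or DESeq2, and 0 had an unadjusted p under 0.05 in edgeR. In microglia Ifnar1 went from 99.7 ± 14.7 to 108 ± 17.3 CPM, Ifnar2 from 117 ± 3.85 to 126 ± 20.8 CPM, Ifngr1 from 699 ± 36.5 to 676 ± 169 CPM and Ifngr2 from 148 ± 6.23 to 169 ± 23.3 CPM. The FPI and sham libraries overlapped for each of them. The 95% intervals of the log2 fold change in edgeR ran from -0.14 to 0.41 for Ifnar1, from -0.15 to 0.41 for Ifnar2, from -0.35 to 0.30 for Ifngr1 and from -0.04 to 0.46 for Ifngr2. All 4 intervals thus lay inside a log2 fold change of 0.6 in either direction.

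In astrocytes Ifnar1 was 68.4 ± 10.7 CPM in sham and 59.0 ± 2.34 CPM in FPI mice, and Ifnar2 was 21.8 ± 4.86 and 21.1 ± 5.77 CPM. Ifngr1 was 46.9 ± 9.30 and 45.8 ± 8.50 CPM, and Ifngr2 11.1 ± 3.47 and 11.7 ± 5.28 CPM. The intervals were wider here, from -0.49 to 0.12 for Ifnar1, from -0.50 to 0.46 for Ifnar2, from -0.41 to 0.40 for Ifngr1 and from -0.67 to 0.89 for Ifngr2. For Ifngr2 in astrocytes the interval reached past the fold required in both directions, at 47 to 144 reads per library.

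**Figure D3:**
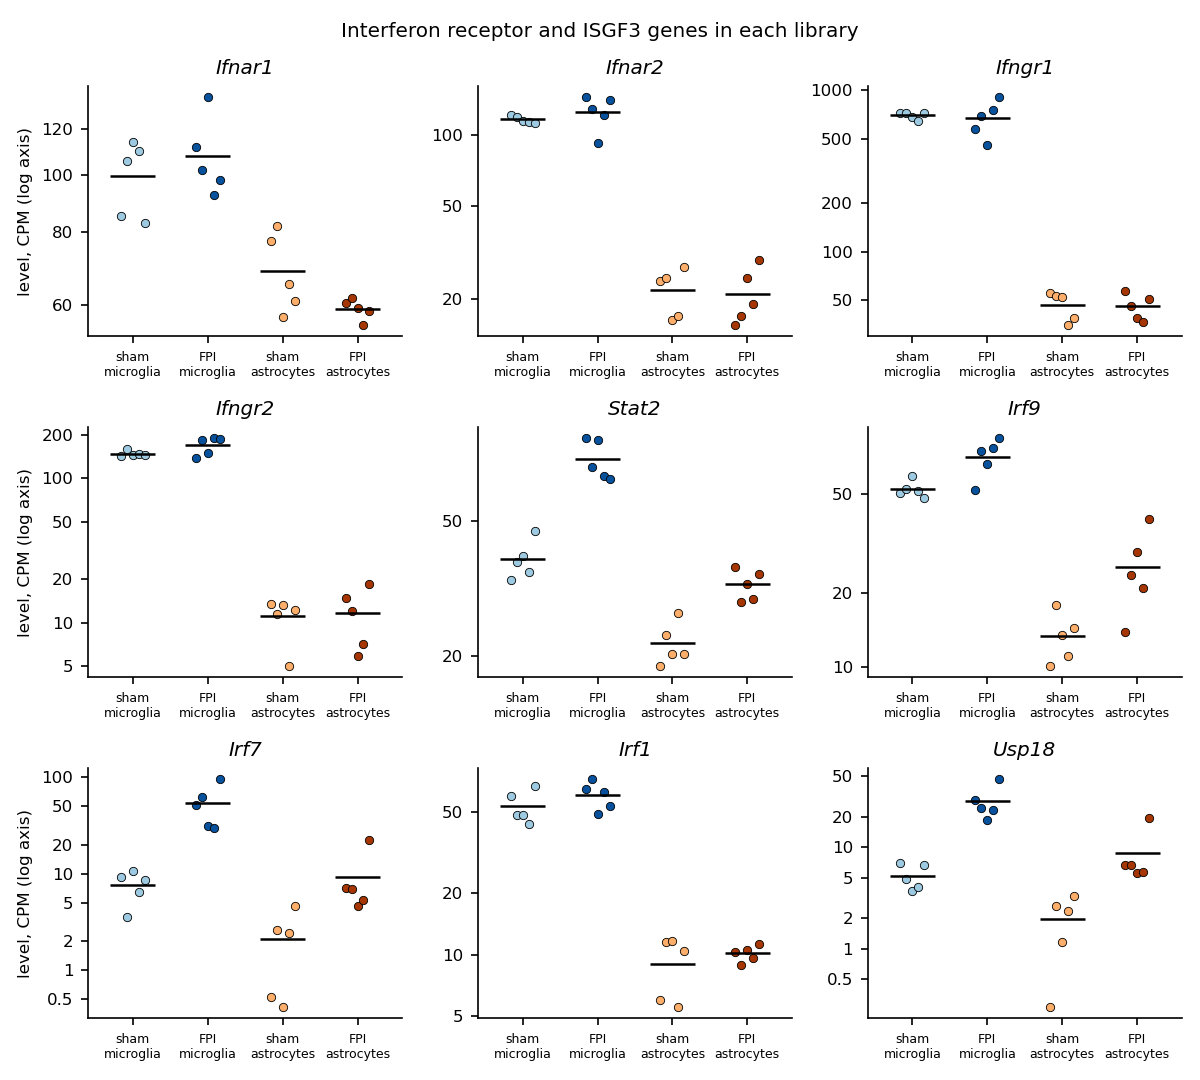
Level of each of the 9 genes in each library (points, CPM on a log axis that differs between panels), with the group mean as a line and 5 libraries in each group. The receptor genes separate the cell types and not the surgeries, while the FPI microglia lie above all sham microglia for Stat2, Irf7 and Usp18.

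Below the receptors, FPI microglia held more Stat2, Irf7 and Usp18. These 3 of the 9 genes were called higher in FPI microglia and none was called lower, where edgeR called 2.13% of the 12143 genes tested higher and 0.214% lower. From these same libraries the study had named Irf7 and Usp18 among its top microglial genes and Stat2 as upregulated in both cell types. The count of 3 is thus not independent evidence. Over the 9 genes the median log2 fold change was 0.21, beside -0.01 over all genes, and 8 of the 9 were above 0. All FPI libraries lay above all sham libraries for the same 3 genes, as they did for 2.17% of genes tested. Markers of other cells were measured in the same libraries. The 7 oligodendrocyte markers summed to 136 to 195 CPM in sham and 201 to 298 CPM in FPI microglia, without overlap. The 10 astrocyte markers summed to 252 to 377 CPM in sham and 299 to 639 CPM in FPI microglia, and Gfap was called among the 9 tested. Of 3 tested markers of oligodendrocyte precursors 2 had log2 fold changes above 0, and Cspg4 was called. The list of 8 summed to at most 28.2 CPM. Pdgfra, of the same list, went the other way, from 3.01 ± 1.19 CPM in sham to 0.936 ± 0.652 CPM in FPI microglia. The part of these cells in the microglia values was not tested.

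Irf7, the factor that amplifies interferon transcription, had the largest change. Its levels in the 5 sham microglia libraries were 9.25, 3.59, 10.6, 6.47 and 8.71 CPM, and in the 5 FPI microglia libraries 52.3, 62.7, 31.6, 30.0 and 95.3 CPM. The lowest FPI library was thus well above the highest sham library. The mean rose from 7.73 ± 2.76 to 54.4 ± 26.7 CPM, 7.03-fold (log2 fold change 2.85 with an SE of 0.34, adjusted p = 6e-05, edgeR). By p it ranked 12 of all genes tested. On the scale per kb it moved from 2.05 to 14.4 CPM, past Irf9 and Stat2, an order that depends on the annotated exon lengths.

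Usp18, the protease that takes ISG15 off proteins, followed it closely. The sham microglia libraries held 7.00, 4.83, 3.70, 4.09 and 6.63 CPM and the FPI libraries 29.2, 24.5, 18.4, 23.4 and 46.5 CPM, again without overlap. The mean rose 5.41-fold, from 5.25 ± 1.49 to 28.4 ± 10.8 CPM (log2 fold change 2.47 with an SE of 0.29, adjusted p = 6e-05, edgeR, rank 13 by p). FPI library 5 was highest for both genes. Without it the log2 fold changes were 2.52 for Irf7 and 2.19 for Usp18, and both were called.

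Stat2, the subunit of ISGF3 that activates transcription, rose by less and with less spread. It was at 33.6, 37.8, 39.4, 35.4 and 46.8 CPM in sham microglia and at 87.5, 72.3, 86.4, 67.8 and 66.6 CPM in FPI microglia. The mean went from 38.6 ± 5.08 to 76.1 ± 10.1 CPM, 1.97-fold (log2 fold change 1.00 with an SE of 0.14, adjusted p = 0.000449, edgeR). FPI library 5, the highest for Irf7 and Usp18, was the lowest for Stat2.

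Irf9, the DNA-binding subunit of ISGF3, was at 50.7, 52.6, 59.6, 51.4 and 48.5 CPM in sham microglia and at 52.2, 74.9, 66.1, 77 and 84.3 CPM in FPI microglia. In 4 of the 5 FPI libraries it was above all sham libraries, and library 1 lay among them. The log2 fold change of 0.45 (with an SE of 0.14) did not pass the test (adjusted p = 0.15, edgeR). DESeq2 gave an adjusted p of 0.0955 for the same change, which is below the fold required. Irf1, the target of interferon gamma, was at 53.1 ± 9.57 CPM in sham and 60.1 ± 9.07 CPM in FPI microglia (log2 fold change 0.19 with an SE of 0.16, adjusted p = 0.757, edgeR), with overlapping libraries and a 95% interval from -0.14 to 0.53.

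The microglia libraries fall into 2 series by their names, replicates 1 to 3 with 4 digits and replicates 4 and 5 with 3. Within the 4-digit series the log2 fold changes were 2.64 for Irf7, 2.21 for Usp18 and 1.14 for Stat2, and all 3 genes were called. Within the 3-digit series Irf7 (3.12) and Usp18 (2.79) were called, and Stat2 at 0.76 (with an SE of 0.23, adjusted p = 0.213, edgeR, n = 2 and 2) was not. For genes not called in either series the estimates were as follows, and their difference between series was not tested. Ifngr1 was -0.32 (with an SE of 0.16) in the 4-digit and 0.33 (0.18) in the 3-digit series. Ifngr2 was 0.06 (0.15) and 0.40 (0.17), and Irf9 was 0.23 (0.18) and 0.74 (0.20). Ifnar1 was 0.18 (0.16) and 0.03 (0.19), and Ifnar2 0.03 (0.18) and 0.26 (0.18). The sum over 10 markers of monocytes and border macrophages was also lower in the 3-digit series. It was 20.3 to 59.7 CPM there and 126 to 382 CPM in the 4-digit series. Most of it was Mrc1, a border macrophage marker, with means of 150.3 CPM in sham and 90.0 CPM in FPI microglia. The whole sum of the 10 markers had means of 209 and 122 CPM. Among those markers Ly6c2, a defining gene of inflammatory monocytes, had no read in any microglia library. Other monocyte markers of the list did have reads. Ccr2 had 180 in sham and 193 in FPI microglia, Plac8 2 and 38, S100a8 35 and 29, and S100a4 12 and 0.

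In astrocytes none of the 9 genes was called by edgeR, where 1 of 13741 genes (0.00728%) was called higher. Usp18, Stat2, Irf9 and Irf7, 4 of the 9, had log2 fold changes above 0 with an unadjusted p under 0.05, as did 1.57% of all genes tested, and these were also the 4 that did so in microglia. DESeq2 called 1 of the 9, Usp18, where it called 0.214% of its genes higher. For Irf9 and Stat2 it gave adjusted p-values of 0.374 and 0.202. The study did report both of these genes as altered in astrocytes, Stat2 as upregulated in both cell types. It used DESeq2 on gene counts estimated with salmon, an input other than the deposited counts. The median log2 fold change of the 9 was 0.19, beside -0.01 over all genes. All FPI libraries lay above all sham libraries for Stat2 and Usp18, as for 0.451% of genes.

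Usp18 was at 0.266, 2.61, 1.15, 2.36 and 3.29 CPM in sham astrocytes and at 6.70, 6.64, 5.61, 5.63 and 19.2 CPM in FPI astrocytes. The groups did not overlap, and FPI library 5 stood far above the others. The log2 fold change was 2.19 (with an SE of 0.57, unadjusted p = 0.00229, adjusted p = 0.999, edgeR), against 2.20 with an adjusted p of 0.0481 in DESeq2, a call that was lost without FPI library 5 (1.68, adjusted p = 0.57, DESeq2). In 1 edgeR fit of all 20 libraries, which shares the spread over both cell types, it was called as well (2.15, adjusted p = 0.0553). Without FPI library 5 it was 1.66 (unadjusted p = 0.0107, edgeR).

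Irf7 was at 0.531, 2.61, 0.418, 2.46 and 4.67 CPM in sham astrocytes and at 7.11, 7.01, 4.61, 5.40 and 22.7 CPM in FPI astrocytes. Library 5 was again the highest, and library 3 lay just below the highest sham library. Its log2 fold change was 2.15 (with an SE of 0.66, unadjusted p = 0.00659, adjusted p = 0.999, edgeR) and was 1.49 (unadjusted p = 0.0333, edgeR) without FPI library 5.

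Stat2 was at 18.7, 23.0, 20.3, 26.8 and 20.3 CPM in sham astrocytes and at 36.7, 28.9, 32.6, 29.5 and 35.0 CPM in FPI astrocytes, without overlap (log2 fold change 0.60 with an SE of 0.15, unadjusted p = 0.0018, adjusted p = 0.999, edgeR). Irf9 was at 10.1, 17.9, 13.5, 11.1 and 14.4 CPM in sham and at 13.8, 23.5, 29.3, 20.8 and 39.9 CPM in FPI astrocytes (0.95 with an SE of 0.27, unadjusted p = 0.00416, adjusted p = 0.999, edgeR), with 4 of 5 FPI libraries above all sham libraries. Without FPI library 5 these log2 fold changes were 0.55 and 0.70. Irf1 was at 9.01 ± 3.02 CPM in sham and 10.1 ± 0.923 CPM in FPI astrocytes, with a 95% interval of the log2 fold change from -0.38 to 0.76.

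Microglia markers were also measured in the astrocyte libraries. All 9 tested there had a log2 fold change above 0, none was called, and the sum over the list of 10 was 104 to 183 CPM in sham and 131 to 269 CPM in FPI astrocytes, ranges that overlap. The difference between FPI and sham astrocytes in single markers came to 0.113% (Tmem119) to 0.548% (C1qa) of the level in FPI microglia. On the same scale the difference was 14.1% for Stat2, 17% for Irf9, 13.3% for Irf7 and 24% for Usp18. Without FPI library 5 it was 13.3%, 11.9%, 7.16% and 14.8% in that order. The part of microglia RNA in these differences was not tested. In FPI astrocytes 9 of the 10 markers stood between 0.218% and 0.821% of their level in FPI microglia, the exception being Sall1 at 8.95%, while the 9 genes described here stood between 6.77% (Ifngr1) and 54.5% (Ifnar1). Markers of oligodendrocyte precursors, summed over 8 genes, were at 1478 CPM in FPI astrocyte library 5 and at 321 to 880.4 CPM in the other astrocyte libraries, and their part in the high Irf7 and Usp18 of that library was not tested.

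**Figure D4:**
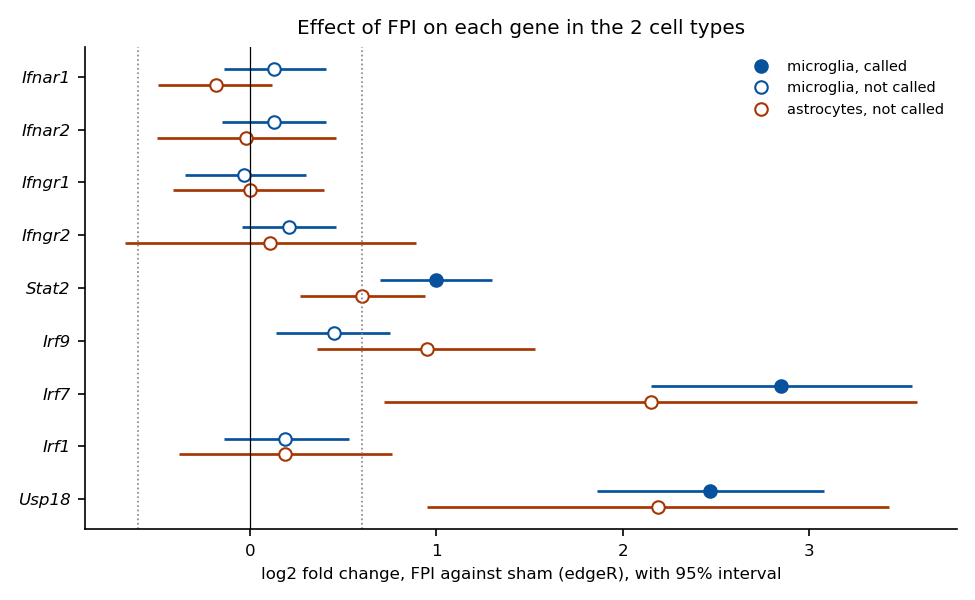
Log2 fold change of FPI against sham for each gene in microglia (blue) and astrocytes (orange), with 95% intervals from edgeR, filled points for called genes and dotted lines at the fold required (0.6 in either direction). Stat2, Irf7 and Usp18 are called in microglia and no gene is called in astrocytes, and the intervals of the cell types overlap for each gene.

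The effect of FPI was not shown to differ between the cell types for any of the 9 genes. The interaction test over all 20 libraries called 0 of 9, and 0 of 9 had an unadjusted p below 0.05 in edgeR or a call in DESeq2, where edgeR called 0.199% of genes at an adjusted p below 0.1. The difference in log2 fold change, microglia minus astrocytes, was 0.71 for Irf7 (95% interval -0.84 to 2.26), 0.29 for Usp18 (-1.03 to 1.61), 0.41 for Stat2 (-0.01 to 0.82) and -0.49 for Irf9 (-1.14 to 0.16). The intervals for Irf7 and Usp18 reached past 0.6 in both directions. With 1 library left out these differences ran from 0.22 (without sham astrocyte library 5) to 1.32 (without FPI astrocyte library 5) for Irf7 and from 0.02 to 0.78 for Usp18, the extremes falling on the same libraries, and neither gene was called in any of these fits. Without the astrocyte libraries of the 3 animals that gave both cell types, the differences for Irf7 and Usp18 were of the opposite sign, at -0.24 and -0.31. For the receptors the widest was that of Ifngr2, from -0.64 to 0.88.

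The order of the 4 groups followed from these effects. Irf7 was highest in FPI microglia, which did not overlap FPI astrocytes, and FPI astrocytes, sham microglia and sham astrocytes followed with overlap between neighbours. Usp18 had the same order, but FPI microglia and FPI astrocytes overlapped, through astrocyte library 5 alone, and sham microglia lay above sham astrocytes without overlap. For Stat2 the FPI microglia came first, then sham microglia and FPI astrocytes, which overlapped, and then sham astrocytes. For Irf9, Irf1 and the 4 receptor genes both microglia groups lay above both astrocyte groups, and the surgeries overlapped within each cell type. After FPI the levels per kb in microglia were 15.1 CPM for Irf1, 14.4 for Irf7, 13.2 for Irf9, 12.8 for Stat2 and 10.2 for Usp18, a narrower range than in sham mice.

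The rest of the pathway was described by lists of 90 further genes. Of the 64 tested in microglia 25 were called higher and none lower, with a median log2 fold change of 0.42, where 2.13% of all genes tested were called higher and the median was -0.01. In astrocytes none of the 54 tested was called by edgeR and 6 were called by DESeq2 (3 without FPI library 5), with a median of 0.64 beside -0.01 over all genes, of which DESeq2 called 0.214%. The ligands were nearly absent. Of 21 interferon genes 19 were matched to the counts, 16 of them had no read in any library, and the whole list had 18 reads. These were 6 reads of Ifnb1 (interferon beta) in 3 FPI microglia libraries, 8 of Ifnz, of which 7 in sham microglia, and 4 of Ifna11 in 1 FPI astrocyte library. Ifng had 0 reads in all libraries together, which allows a level of up to 0.0176 CPM by counting error alone. The Ifna genes are near-identical copies, and how reads that fit several of them were counted is not given in the sources used here. The ligands were named after their values were seen.

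Of the type III receptor, Ifnlr1 had 6 reads in astrocytes and none in microglia, and its partner chain Il10rb, shared with the interleukin 10 receptor, was at 75.2 ± 9.51 CPM in sham and 73.6 ± 7.87 CPM in FPI microglia. None of the 4 receptor kinases and STATs described (Jak1, Jak2, Tyk2 and Stat3) was called in either cell, and 0 had an unadjusted p under 0.05 in edgeR. Jak1, the most abundant, was at 323 ± 25.8 CPM in sham and 302 ± 21.4 CPM in FPI microglia. None of the 8 other IRF genes tested in microglia was called, nor any of 6 in astrocytes, and 0 had an unadjusted p under 0.05 in edgeR. The most abundant was Irf8, a lineage factor of microglia, at 475 ± 23.5 CPM in sham and 526 ± 12.8 CPM in FPI microglia. Of other negative regulators 0 of 11 were called in microglia and 0 of 10 in astrocytes, with 1 in each cell type at an unadjusted p under 0.05 in edgeR (lower in microglia, higher in astrocytes), and Ptpn6, a phosphatase that restrains the kinases, was at 340.0 ± 25.6 and 347 ± 54.7 CPM in microglia. Of the negative regulators listed here, Usp18 alone was called by edgeR in microglia. Socs3, a kinase inhibitor named after its values were seen, was at 4.46 ± 2.25 CPM in sham and 12.9 ± 5.62 CPM in FPI astrocytes without overlap (unadjusted p = 0.00216, adjusted p = 0.999, edgeR).

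Isg15, the ubiquitin-like protein that Usp18 removes, rose in microglia from 1.16 ± 0.557 to 9.74 ± 3.57 CPM (log2 fold change 3.06 with an SE of 0.46, adjusted p = 0.000598, edgeR). The ligases Trim25 (0.76) and Herc6 (0.83) were called as well, while the activating enzyme Uba7 (0.16, adjusted p = 0.855, edgeR) and the conjugating enzyme Ube2l6 (1.17, adjusted p = 0.15, edgeR) were not. In astrocytes none of these 5 genes was called, 0 had an unadjusted p under 0.05 in edgeR, and all 5 had log2 fold changes above 0, with Isg15 at 1.88.

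Of 19 ISGF3 target genes tested in microglia 18 were called higher, all but Ifi27 (0.53, adjusted p = 0.586, edgeR), a gene named for being the exception, with a median log2 fold change of 2.46. The study picked out several members of this list in these libraries, and MHC class I presentation, which some genes of the next list serve. The count for either list is thus not independent evidence of its direction. The smallest p-values belonged to Oasl2 (3.00), Ifit2 (2.63), Ifit3 (2.46), Oas2 (2.67) and Ifit1 (2.64), all antiviral effectors. In astrocytes none of 14 tested was called, all 14 were above 0, and 11 had an unadjusted p below 0.05, as did 1.57% of all genes in that direction, with a median of 1.07. Ifit1 for example was at 4.55 ± 0.825 CPM in sham and 16.9 ± 9.56 CPM in FPI astrocytes, without overlap.

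Of 16 interferon gamma target genes tested in microglia 4 were called, Tap1 (0.95) and Nlrc5 (1.46), which serve MHC class I presentation, and the GTPases Irgm1 (0.71) and Iigp1 (1.96), with a median of 0.54. In astrocytes none of 14 was called, all 14 were above 0 and 10 had an unadjusted p below 0.05, with a median of 1.05. For this list the FPI effect in microglia minus that in astrocytes had a median of -0.47, with 6 genes lower at an unadjusted p below 0.05, and for the ISGF3 targets it was 1.08, with 5 genes higher. No gene of either list was called in that interaction test, whose median over all genes was 0.02. Of all 15077 genes in that test, 1058 had an unadjusted p below 0.05 in edgeR, 569 of them higher and the rest lower.

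**Figure D5:**
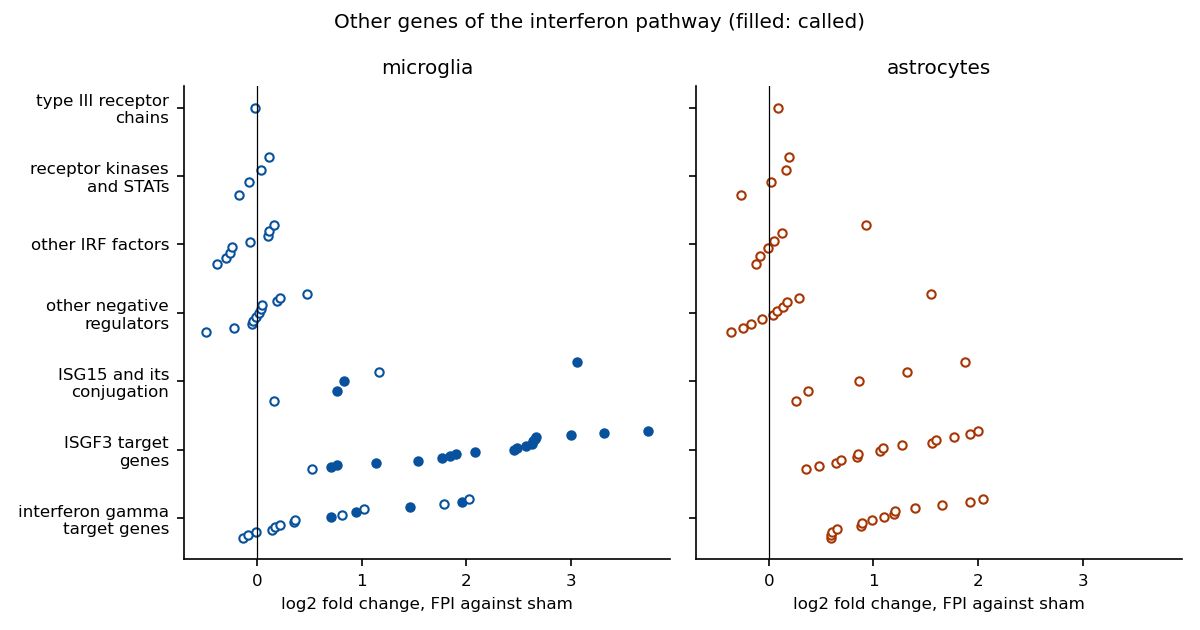
Log2 fold change of FPI against sham for each tested gene of 7 pathway lists in microglia (left) and astrocytes (right), with filled points for called genes. In microglia the filled points are 3 genes of the ISG15 list, 18 ISGF3 targets and 4 interferon gamma targets, and there are none in astrocytes.

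The profiles of the 9 genes over the 20 libraries were compared with those of all tested genes by the root mean square difference of log2 CPM after centring, as a description over libraries that share cell type and surgery. Irf7 and Usp18 were each other's nearest gene, at 0.58, where the median gene lay at 2.07 from Irf7 and at 1.78 from Usp18. Next came Cxcl10 for Irf7 (0.79) and Rtp4 for Usp18 (0.68). Stat2 was nearest to Daxx (0.32) and Adar (0.33), and Irf9 to Rpl13a (0.31) and Igtp (0.34). Ifngr1 and Ifngr2 shared 1700017B05Rik as nearest gene (0.23 and 0.28), and Ifngr1 was second for Ifngr2 (0.31). Tlr4 was second for Ifngr1 (0.29). Plxnb2 was nearest to both Ifnar2 (0.20) and Irf1 (0.26), followed by Rap1b (0.22) and Ptpn1 (0.27), and Ifnar1 was nearest to Gapvd1 and Ddx3x (0.17 each). The distance was 0.96 between Ifnar1 and Ifnar2 and 0.31 between Ifngr1 and Ifngr2.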

How the data were processed

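The deposited values were the authors' counts, whole numbers of reads per gene without normalization for 39017 Ensembl identifiers. Per the labels and the study's methods, stranded total RNA libraries were aligned with HISAT2 2.1.0 to GRCm38.p6 with GENCODE M19 genes, and the submitters' processing notes name featureCounts. The strand setting is not given in the sources used here. The 20 files of single libraries were identical to the combined table.

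Microglia and astrocytes were fitted separately by the quasi-likelihood method of edgeR 4.0.16 in R 4.3.3, after filterByExpr and scaling by TMM. All 20 libraries were fitted together for contrasts between cell types and for the interaction. Benjamini-Hochberg adjustment ran over all genes tested. Calls required an adjusted p under 0.1 and, except in the interaction, a log2 fold change beyond 0.6 in either direction, the study's thresholds. The SE was derived from the fold change and its F statistic. DESeq2 1.42.0 was an alternative. The fits were tested on simulated data. Ratios of receptor chains were compared by exact permutation tests. CPM per kb used exon lengths of GENCODE M21, which held 37607 of the identifiers. Floors are 3 reads and cover counting error only. Tables and figures were made in Python 3.11.15 with pandas 2.3.3 and matplotlib 3.10.9.

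Groups follow the titles and cell type labels. Libraries of a group came from separate animals by the study's methods, apart from the doubt over FPI astrocyte library 5. The members, lists and tests were chosen with earlier results of these data known. Genes named from a list were those called, up to 5 of smallest p in microglia, or the most abundant one where none was called, and for each of the 9 genes the 2 of nearest profile. Of the pathway and marker lists, 2 genes are not reported here.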

Additional observations from a re-analysis of the deposited data

Results flagged for a closer look

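Of 36 sets of 5 libraries, 9 genes in 4 groups, 3 held 1 library whose gap to the nearest other exceeded 0.71 of the whole range (Dixon's 95% value), and chance gives about 1 set in 20. A pair of these were in 1 library, FPI astrocyte library 5: Irf7 at 22.7 CPM, with the other 4 libraries at 4.61 to 7.11 CPM, and Usp18 at 19.2 CPM, with the others at 5.61 to 6.70 CPM. The third was Ifngr2 in sham astrocyte library 4, at 5.03 CPM with the others at 11.6 to 13.4 CPM.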

How the results depend on the processing

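The count of 3 genes called in microglia was 3 under 11 of 12 alternatives, 2 within the 3-digit series, and 3 when any 1 library was left out. In astrocytes 1 gene (Usp18) was called by DESeq2 and by the fit of all 20 libraries, in place of 0, and 0 by DESeq2 without FPI library 5 (an alternative added after the data had been seen) and with each library left out. Counts of the 9 called between cell types were 8 to 9 in sham and 9 in FPI mice, and the interaction had 0, with each library left out. The pathway genes called in microglia, 25, fell to 10 within the 3-digit series and 11 in the fit of all 20 libraries, and were 22 to 27 with 1 library left out. In astrocytes, 0 became 6 with DESeq2 (3 without FPI library 5) and with all 20 libraries in 1 fit, 2 without a filter on low counts, and 0 to 1 with 1 library left out (1 without FPI astrocyte library 1).

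With the replicate number as a block, 2 pathway genes were called in astrocytes. The block left the calls of the 9 genes as they were, with 3 in microglia and 0 in astrocytes. The labels give the numbers no shared animal or day. The deviations of same-numbered sham and FPI libraries correlated at r = -0.0438 to 0.078 in microglia and -0.00449 to 0.411 in astrocytes, where 4 of 5 exceeded 0.1, so the numbers were not treated as pairs. The correlation was highest with the own number for 3 of 5 numbers in astrocytes and 2 of 5 in microglia.

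Over all genes, the calls in microglia went from 285 to 121 with all 20 libraries in 1 fit and 99 within the 3-digit series. In astrocytes 1 became 39 (DESeq2), 53 (all 20 libraries), 11 (block) and 9 (no filter), and in the interaction 30 became 190 (DESeq2) and 1 (at least 10 counts in every library).

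Small log2 fold changes changed sign. In microglia Ifngr1 was 0.33 within the 3-digit series, and -0.18 to 0.09 with 1 library left out. In astrocytes Ifngr2 was -0.04 with FPI libraries 2 and 5 summed and -0.13 by DESeq2 without library 5, and leaving out 1 library gave -0.15 to 0.28 for Ifngr2, -0.19 to 0.08 for Ifnar2 and -0.12 to 0.07 for Ifngr1. In the interaction, without the astrocyte libraries of the 3 shared animals Ifngr1 was 0.11, Irf7 -0.24 and Usp18 -0.31, without their microglia libraries Ifngr1 was 0.02 and Irf1 -0.13, and Irf1 was -0.00 with the libraries summed. With 1 library left out these ran from -0.14 to 0.09 for Ifngr1, -0.07 to 0.33 for Ifngr2 and -0.11 to 0.14 for Irf1. The cell type difference in the Ifngr1 to Ifngr2 ratio, a comparison added after the data had been seen, ran from -0.02 to 0.27 in sham and -0.27 to 0.05 in FPI mice, and that of Ifnar1 to Ifnar2 from -2.04 to -1.84 in sham and -1.93 to -1.63 in FPI mice. Causes were not tested. Levels near 2 to 37 reads limit Irf7 and Usp18 in sham astrocytes.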
